A study of Homo sapiens with 6 samples.

Results

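The clade B serpins are the family of protease inhibitors that includes plasminogen activator inhibitor 2, maspin and the squamous cell carcinoma antigens, and 10 of them were examined in oral squamous carcinoma cells under low oxygen. The genes were SERPINB1, SERPINB2, SERPINB3, SERPINB4, SERPINB5, SERPINB6, SERPINB7, SERPINB8, SERPINB9 and SERPINB13, and they were matched by symbol among the 21776 genes of the count table. They were chosen by family with their hypoxia to normoxia differences in these same libraries already known, so their values and calls are given as a description, with no p for any of them. Of the 10, 9 had a row, SERPINB9 was not analysed here, and 8 passed the filter on low counts that left 14255 genes. SERPINB10, SERPINB11 and SERPINB12, the remaining human clade B genes, were not analysed here either.

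A serpin presents an exposed reactive centre loop to a protease, which cleaves it and is then trapped in a covalent complex. Most clade B members lack a classical secretion signal and act mainly inside the cell, although some, such as SERPINB2, are also found outside it. Stratified squamous epithelium is one of the tissues in which several of them are abundant, and individual members are known there as inhibitors of plasminogen activators, of cathepsins or of furin, while maspin is not known to inhibit proteases.

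RNA-seq was done on wild-type SCC25, a human oral squamous cell carcinoma line, with 3 libraries from cells kept for 12 h at 1% O2 in a tri-gas incubator (hypoxia) and 3 from cells kept for 12 h in a CO2 incubator with air (normoxia). All cells were grown in DMEM/F12 medium with fetal bovine serum, and a legend in the study's text names the line SCC9 rather than SCC25. The normoxia libraries held 37278703, 29637189 and 29981208 counted reads and the hypoxia libraries 30186813, 36076088 and 32272716. Nothing says that the 3 libraries of a condition came from separate cultures, so p-values measure only the spread between these libraries, and in bulk RNA fewer cells of a type and less RNA per cell cannot be told apart.

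The squamous identity of the cells was checked on 8 markers, whose summed level was 426, 414 and 451 FPKM (fragments scaled to gene length and library total) under normoxia and 499, 536 and 515 FPKM under hypoxia. LAMB3, a laminin chain of the basement membrane, was the most abundant of them and rose from 193 to 326 FPKM, which is more than the rise of the sum. The markers moved apart, since of the 7 tested in edgeR LAMB3, the keratin KRT17 and the desmosome genes DSG3 and PKP1 rose, SFN fell from 158 to 93.5 FPKM, the basal keratin KRT5 fell from 55.4 to 50.4 FPKM and TP63 did not pass the test. KRT14, the usual partner of KRT5, had at most 1 read in any library. Of the 8 immune markers, 5 had a row and summed to at most 3.98 FPKM in any library. The most abundant of these was CD14, at a mean of 0.642 FPKM under normoxia and 3.60 FPKM under hypoxia, while PTPRC, CD3E, LYZ and CD79A had 3 or fewer reads in every library. The 5 fibroblast markers summed to at most 3.95 FPKM, led by COL1A1, and the 4 endothelial markers to at most 0.340 FPKM, led by CDH5. The immune, fibroblast and endothelial sums were higher in every hypoxia library than in any normoxia library, and their part in the serpin values was not tested. Normoxia replicate 3 lay farther from the other normoxia libraries (chi-square per gene of 9.98 and 10.8) than those did from each other (6.82), so values without it are given where it moved a result.

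Under hypoxia, 6 of the 8 serpins tested were lower (SERPINB2, SERPINB3, SERPINB4, SERPINB5, SERPINB7 and SERPINB8) and 2 were higher (SERPINB1 and SERPINB6), at an adjusted p under 0.05 in edgeR's quasi-likelihood test with Benjamini-Hochberg adjustment over all genes. Of all genes tested, 38.5% were lower and 39.2% were higher by the same call. For each of the 8 serpins the 3 hypoxia values lay outside the range of the 3 normoxia values, and the same held for 39.9% of all genes in the lower direction and 40.6% in the higher direction. Because the genes were picked on this contrast, these counts describe the list and nothing is read from them. The median log2 fold change of the 8 was -1.44, beside 0.02 over all 14255 genes tested. SERPINB3 and SERPINB4 had 11 or fewer reads in each hypoxia library and passed the filter through their normoxia reads.

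**Figure D1:**
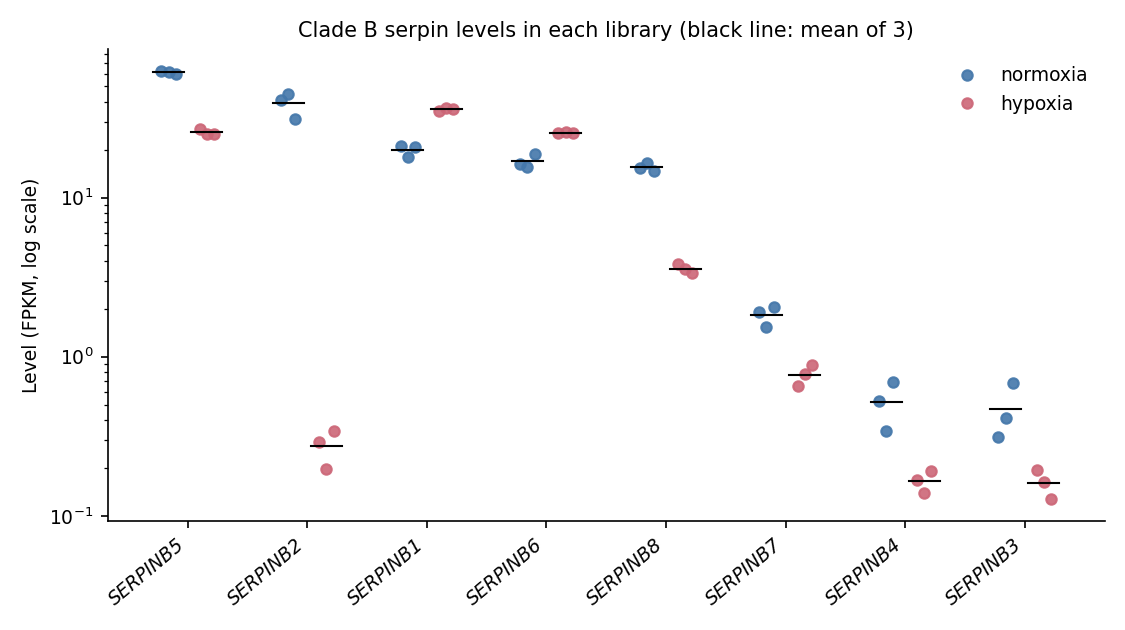
Level of each clade B serpin tested, in FPKM on a log axis, in 3 normoxia and 3 hypoxia libraries (points) with the mean of each condition (black line). SERPINB2 went from 39.0 to 0.277 FPKM on average, while SERPINB1 and SERPINB6 were the only members tested whose hypoxia points lay above their normoxia points.

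The start regions of 3 of these genes are printed because they belong to the serpins with the largest decrease, the next well-expressed decrease and the largest increase. Each runs from 250 bases before to 50 bases after the RefSeq start site on GRCh38.p14, on the strand of the gene. Capitals mark matches, searched on both strands, to TGANTCA, the AP-1 site, and to ACGTG, the core of the hypoxia response element. They also mark the variant GCGTG of that core and the TATA box TATAAA, so a match on the other strand appears as the reverse complement. SERPINB2 is at chr18:63887455-63887754 on the plus strand, SERPINB8 at chr18:63969831-63970130 on the plus strand and SERPINB1 at chr6:2841814-2842113 on the minus strand.
SERPINB2: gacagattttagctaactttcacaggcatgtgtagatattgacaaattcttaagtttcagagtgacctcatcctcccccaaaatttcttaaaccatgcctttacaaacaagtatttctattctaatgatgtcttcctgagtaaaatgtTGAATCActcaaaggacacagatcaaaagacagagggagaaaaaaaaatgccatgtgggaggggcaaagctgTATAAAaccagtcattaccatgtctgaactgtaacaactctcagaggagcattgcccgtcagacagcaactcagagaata
SERPINB8: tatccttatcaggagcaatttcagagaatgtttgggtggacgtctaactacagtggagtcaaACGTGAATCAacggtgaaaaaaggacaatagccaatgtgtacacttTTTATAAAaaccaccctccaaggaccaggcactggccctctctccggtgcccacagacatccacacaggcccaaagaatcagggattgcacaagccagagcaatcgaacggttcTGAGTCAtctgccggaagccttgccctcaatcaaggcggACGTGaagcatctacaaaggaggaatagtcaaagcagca
SERPINB1: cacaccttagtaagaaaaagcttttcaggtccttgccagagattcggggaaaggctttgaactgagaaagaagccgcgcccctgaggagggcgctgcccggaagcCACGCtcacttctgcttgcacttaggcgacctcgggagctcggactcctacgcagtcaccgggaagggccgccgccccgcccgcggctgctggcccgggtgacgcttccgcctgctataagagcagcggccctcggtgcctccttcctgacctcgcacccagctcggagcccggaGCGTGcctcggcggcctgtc

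The SERPINB2 region held 1 AP-1 match at -102 and 1 TATAAA match at -30 from the start site. The SERPINB8 region held AP-1 matches at -185 and -28, ACGTG matches at -188 and 12, and a pair of overlapping TATAAA matches on opposite strands at -142 and -140, and its upstream ACGTG and AP-1 matches overlap. The SERPINB1 region held neither an AP-1 nor a TATAAA match, and had GCGTG matches at -145 and 31. Among the 35116 promoters of the RefSeq table, of the same 300-base length, TGANTCA was found in 7.71%, ACGTG in 21.4%, GCGTG in 36.5% and TATAAA in 11.5%. All 10 serpins were in that table, and the AP-1 motif was found in 4 of them, namely SERPINB2, SERPINB5, SERPINB8 and SERPINB13. A match of letters is a description of the window, not a bound site.

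The start regions also differed in base composition. SERPINB1, SERPINB6 and SERPINB9, on chromosome 6, had start regions of 65.7%, 68.7% and 75.7% GC, with 27, 32 and 35 CpG dinucleotides. The 7 members on chromosome 18 ranged from 39.0% GC with 1 CpG in SERPINB2 to 59.7% GC with 16 CpG in SERPINB5. The median of all promoters was 58.7% GC and 14 CpG, so the chromosome 6 regions lay above the median and the chromosome 18 regions, apart from that of SERPINB5, below it.

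SERPINB2 encodes plasminogen activator inhibitor 2, an inhibitor of urokinase and tissue plasminogen activator. Its reads numbered 3485, 3003 and 2113 in the normoxia libraries and 20, 16 and 25 in the hypoxia libraries, or 41.3, 44.7 and 31.1 FPKM against 0.293, 0.196 and 0.342 FPKM. The lowest normoxia library, replicate 3, still lay far above every hypoxia library. The level in CPM (counts scaled to the normalized library total) was 90.0 ± 17.1 (SD, n = 3) under normoxia and 0.619 ± 0.173 (SD, n = 3) under hypoxia, a log2 fold change of -7.20 (SE 0.18), or 147-fold lower. The log2 fold change was -7.36 without normoxia replicate 3. Ranked by mean FPKM among the 21776 genes, SERPINB2 went from rank 1648 to rank 13399.

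Of the 9 genes listed for plasminogen activation, 8 were tested, of which 3 rose, 4 fell and 1 did not pass the test (edgeR, Benjamini-Hochberg), with a median log2 fold change of -0.30. These counts lie near the 39.2% of all genes that rose and the 38.5% that fell. PLAU, which encodes urokinase, fell from 105 to 43.5 FPKM (log2 fold change -1.32, SE 0.07), and its receptor PLAUR fell from 21.7 to 17.6 FPKM (log2 fold change -0.35, SE 0.06). PLAT, which encodes tissue plasminogen activator, rose from 24.5 to 44.5 FPKM (log2 fold change 0.81, SE 0.07), and SERPINE2, protease nexin 1, fell by 0.88 on the log2 scale (SE 0.11). Urokinase and its receptor were thus lower together with SERPINB2, whereas tissue plasminogen activator was higher. ANXA2 fell by 0.32 and S100A10, its partner in a plasminogen-binding complex at the cell surface, rose by 0.32 on the log2 scale (SE 0.05 and 0.06), and the plasminogen receptor gene PLGRKT had a log2 fold change of -0.28 (adjusted p = 0.0539 in edgeR's test). The PLGRKT value passed the test without normoxia replicate 1 (-0.42) or hypoxia replicate 1 (-0.36).

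**Figure D2:**
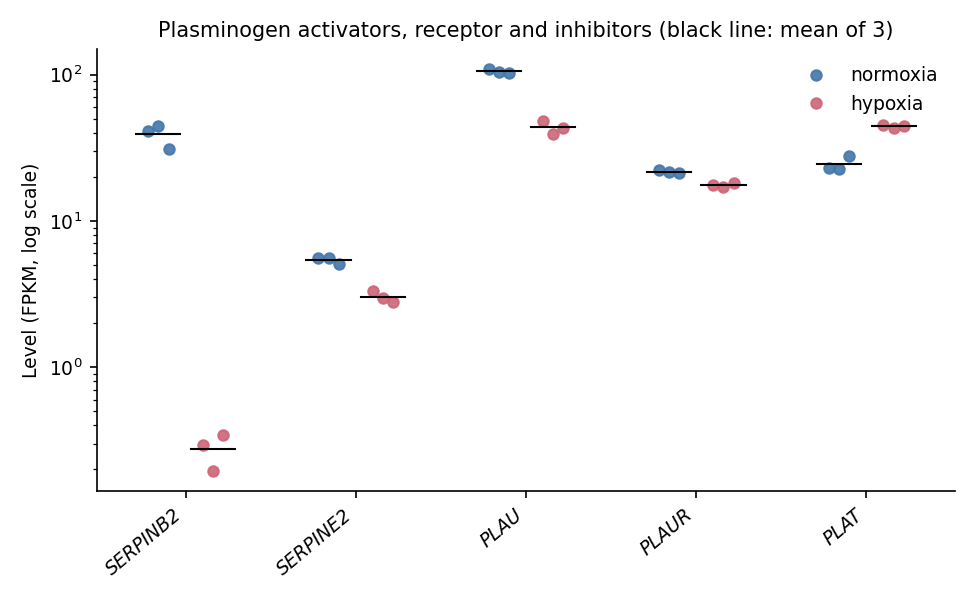
Level in FPKM (log axis) of SERPINB2, SERPINE2, urokinase (PLAU), its receptor (PLAUR) and tissue plasminogen activator (PLAT) in 3 normoxia and 3 hypoxia libraries (points), with the mean of each condition (black line). SERPINB2 went from a mean of 39.0 to 0.277 FPKM and PLAU from 105 to 43.5 FPKM, while PLAT rose from 24.5 to 44.5 FPKM.

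SERPINB5 encodes maspin, a serpin without known protease inhibition that is expressed in normal squamous and mammary epithelium. Its reads numbered 6214, 4855 and 4745 under normoxia and 2158, 2419 and 2147 under hypoxia, or 62.7, 61.6 and 59.5 FPKM against 26.9, 25.2 and 25.0 FPKM. It was the most abundant serpin of the family in each normoxia library, with coefficients of variation in CPM of 2.88% under normoxia and 4.43% under hypoxia. The log2 fold change was -1.30 (SE 0.06), or 2.46-fold lower.

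SERPINB8 encodes an inhibitor of furin, the proprotein convertase of the secretory pathway. Its level was 15.4, 16.6 and 14.6 FPKM under normoxia and 3.80, 3.56 and 3.35 FPKM under hypoxia, with no overlap between the groups. The log2 fold change was -2.17 (SE 0.07), or 4.50-fold lower, the second largest decrease among the 8. FURIN itself fell less, from 37.8 to 26.7 FPKM (log2 fold change -0.55, SE 0.06, adjusted p = 1.13e-07 in edgeR's test). The annotated exons of SERPINB8 share 370 bases with those of HMSD on the same strand, and HMSD, at 3.24 FPKM under normoxia and 2.94 FPKM under hypoxia, did not pass the test (log2 fold change -0.19, adjusted p = 0.15).

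SERPINB1 and SERPINB6 encode inhibitors best known for blocking the serine proteases of neutrophil granules, with SERPINB1 acting on elastase, proteinase 3 and cathepsin G and SERPINB6 on cathepsin G. SERPINB1 was at 21.2, 18.1 and 20.7 FPKM under normoxia and 35.0, 36.6 and 35.9 FPKM under hypoxia. SERPINB6 was at 16.4, 15.7 and 18.7 FPKM under normoxia and 25.3, 25.7 and 25.6 FPKM under hypoxia. Both were higher in every hypoxia library than in any normoxia library, and the hypoxia libraries lay close together. The log2 fold changes were 0.80 (SE 0.06), or 1.74-fold higher, for SERPINB1 and 0.55 (SE 0.06), or 1.46-fold higher, for SERPINB6. Their target proteases were barely measured in these cells, since ELANE and PRTN3 were under the filter and CTSG was not analysed here.

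SERPINB3 and SERPINB4 encode the squamous cell carcinoma antigens, of which the first inhibits papain-like cysteine cathepsins and the second chymotrypsin-like proteases such as cathepsin G. SERPINB3 had 20, 21 and 35 reads under normoxia and 10, 10 and 7 under hypoxia, and SERPINB4 had 35, 18 and 37 reads under normoxia and 9, 9 and 11 under hypoxia. Although they are named for squamous carcinoma, neither was above 0.693 FPKM in any library. The log2 fold changes were -1.57 (SE 0.46) for SERPINB3 and -1.68 (SE 0.43) for SERPINB4, the widest errors of the 8. Of the 50-base windows of the longest coding transcript of SERPINB3, 23.9% occur in that of SERPINB4, so some reads may be split between them and each single value is uncertain. Their start regions, which lie mostly before the start site and so do not bear on how reads are split, are identical at 296 of 300 positions (98.7%). Summed, the pair had a log2 fold change of -1.64 (SE 0.35). Without normoxia replicate 3, the highest normoxia library for both, the values were -1.23 for SERPINB3 and -1.45 for SERPINB4.

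SERPINB7, or megsin, is a serpin of the upper epidermis whose loss causes a palmoplantar keratosis. It had 165, 106 and 143 reads under normoxia and 46, 65 and 67 under hypoxia, or 1.90, 1.54 and 2.05 FPKM against 0.655, 0.774 and 0.892 FPKM. The groups did not overlap, and the log2 fold change was -1.28 (SE 0.21), or 2.44-fold lower. SERPINB13, or hurpin, an inhibitor of cathepsins L and K that marks differentiated squamous epithelium, had 1 read in all 6 libraries together, which is under the limit of 3 reads at which a level can be told from 0. SERPINB3, SERPINB4 and SERPINB13 were therefore low or unmeasurable in these cells, with lower mean FPKM in both conditions than every other member with a row.

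The cysteine cathepsins that several of these serpins inhibit had smaller fold changes, apart from CTSK. CTSL, cathepsin L, fell by 0.26 on the log2 scale (SE 0.06, adjusted p = 0.000581 in edgeR's test), and CTSS, cathepsin S, had a log2 fold change of 0.19 (adjusted p = 0.108). CTSV had a log2 fold change of 0.22 (adjusted p = 0.0495), a call lost when any library other than normoxia replicate 3 was left out. CTSK, cathepsin K, rose by 1.55 on the log2 scale (SE 0.23, adjusted p = 7.74e-06) but was low, at 0.794 FPKM under normoxia and 2.40 FPKM under hypoxia. Over the 14 listed target proteases, 7 were tested, 3 rose (PLAT, CTSK and CTSV), 3 fell (PLAU, FURIN and CTSL) and 1 did not pass the test, near the 39.2% and 38.5% of all genes that rose and fell. Their median log2 fold change was 0.19.

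Per unit length, the order of the family under normoxia was SERPINB5, SERPINB2, SERPINB1, SERPINB6, SERPINB8, SERPINB7, SERPINB4 and SERPINB3, with means from 61.2 to 0.471 FPKM. Within that order, the library ranges overlapped for SERPINB1 with SERPINB6, for SERPINB6 with SERPINB8 and for SERPINB4 with SERPINB3, and the other neighbours were separate. Under hypoxia the order was SERPINB1, SERPINB5, SERPINB6, SERPINB8, SERPINB7, SERPINB2, SERPINB4 and SERPINB3, with means from 35.9 to 0.161 FPKM. SERPINB5 and SERPINB6 then overlapped, as did SERPINB4 and SERPINB3, and SERPINB2 lay only just above that last pair.

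The summed level of the 9 serpins with a row was 159.6, 159.0 and 148.0 FPKM under normoxia and 92.3, 92.4 and 91.4 FPKM under hypoxia, 1.69 times as high under normoxia. Without SERPINB2 the sums were 116.5 ± 2.08 FPKM and 91.8 ± 0.597 FPKM (SD, n = 3 each), 1.27 times as high under normoxia. The makeup of the sum shifted further than its size. SERPINB5 made up 39.4% of the sum under normoxia and 27.9% under hypoxia, SERPINB2 25.1% and 0.301%, and SERPINB8 9.99% and 3.88%. SERPINB1 went from 12.8% to 39.0% and SERPINB6 from 10.9% to 27.7%. These are the authors' FPKM summed over genes, and the shares are relative to the family alone.

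**Figure D3:**
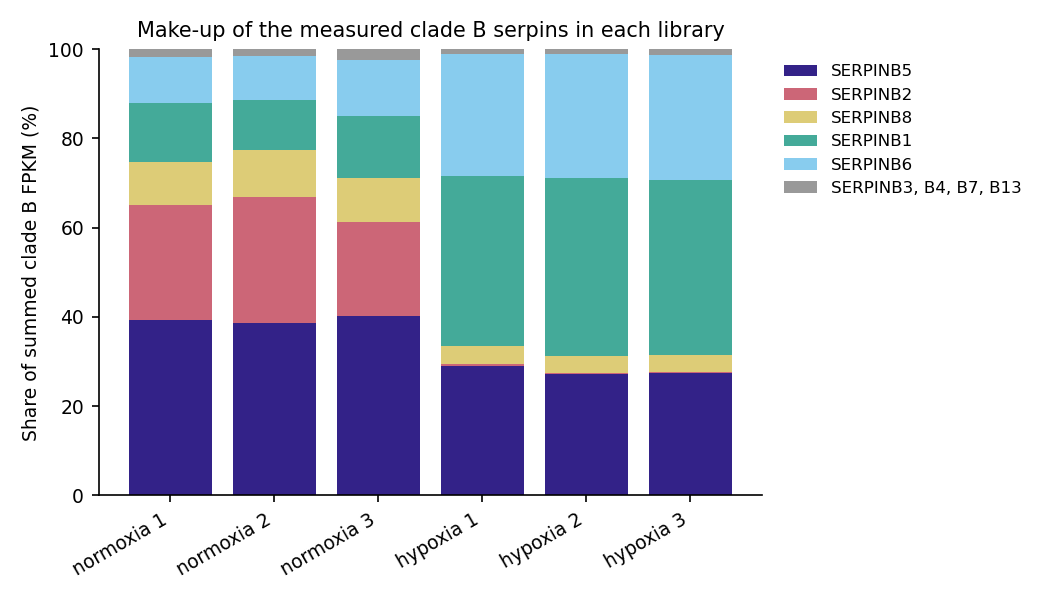
Share of the summed clade B FPKM (percent) taken by each serpin in each of the 3 normoxia and 3 hypoxia libraries (stacked bars). SERPINB5 and SERPINB2 lead under normoxia with mean shares of 39.4% and 25.1%, and SERPINB1 leads under hypoxia with 39.0%.

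The human clade B genes lie in clusters on chromosomes 18 and 6. The order on chromosome 18 (RefSeq GRCh38.p14) is SERPINB5, SERPINB12, SERPINB13, SERPINB4, SERPINB3, SERPINB11, SERPINB7, SERPINB2, SERPINB10 and SERPINB8, and on chromosome 6 it is SERPINB1, SERPINB9 and SERPINB6. All 6 members tested on chromosome 18 were lower under hypoxia and both members tested on chromosome 6 were higher, beside 38.5% of all genes lower and 39.2% higher. As the genes were picked on this contrast, this is a description. SERPINB3 and SERPINB4, among the 6, passed the filter on low counts through normoxia, where they were high, so their place there carries no weight. The 8 genes listed as neighbours of the clusters were all tested, of which 5 fell and 3 did not pass the test in edgeR. All 8 had a log2 fold change below 0, with a median of -0.29, beside a median of 0.02 over all genes tested. Of all genes tested, 38.5% fell by the same call as the 5.

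On chromosome 18, BCL2, the apoptosis inhibitor, fell by 1.18 on the log2 scale (SE 0.24) at a low level, and KDSR, an enzyme of sphingolipid synthesis, fell by 0.16 (SE 0.06), a call lost without normoxia replicate 1 (-0.16) or hypoxia replicate 3 (-0.11). VPS4B, a gene of endosomal sorting next to SERPINB5, had a log2 fold change of -0.05 (SE 0.05, adjusted p = 0.383), and HMSD, between SERPINB10 and SERPINB8, is given above. On chromosome 6, WRNIP1 fell by 0.22, the quinone reductase gene NQO2 by 0.51 and the death-receptor kinase gene RIPK1 by 0.58 on the log2 scale (SE 0.06, 0.12 and 0.08). MYLK4 had a log2 fold change of -0.36 (SE 0.28, adjusted p = 0.252). The neighbours of SERPINB1 and SERPINB6 that passed the test were thus lower, not higher, and VPS4B and HMSD had smaller log2 fold changes than SERPINB5 and SERPINB8 beside them.

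**Figure D4:**
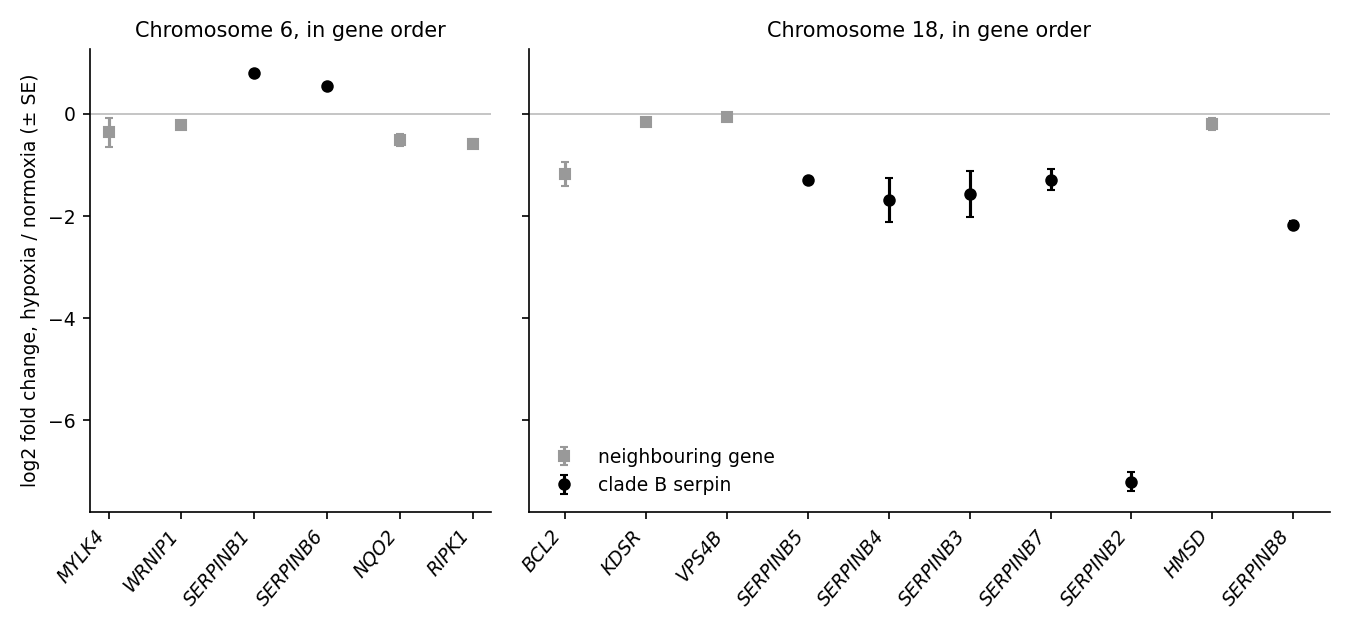
Log2 fold change of hypoxia over normoxia (y axis, with SE as bars, some smaller than the marker) for clade B serpins (black circles) and neighbouring genes (grey squares) in their order on chromosomes 6 and 18. The chromosome 18 serpins lie between -7.20 and -1.28, and SERPINB1 and SERPINB6 lie at 0.80 and 0.55.

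Of the 21 serpins listed from other clades, 14 had a row and 9 were tested, of which 7 rose and 2 fell, where 39.2% of all genes tested rose and 38.5% fell. Their median log2 fold change was 1.06. The size of the changes varied widely. SERPINA5, the protein C inhibitor, rose from 1.04 to 9.01 FPKM (log2 fold change 3.06, SE 0.13). SERPINF1, which encodes pigment epithelium-derived factor, had 7, 6 and 13 reads under normoxia and 26, 32 and 18 under hypoxia (log2 fold change 1.45, SE 0.46). It passed the filter through the hypoxia libraries, where it was high, and its call was lost without normoxia replicate 1 (adjusted p = 0.0536 in edgeR's test). SERPINF2, which encodes the plasmin inhibitor, rose by 1.15 (SE 0.11) on the log2 scale. SERPINA3 and SERPINI1 rose by 1.06 and 1.02 on the log2 scale (SE 0.27 and 0.21). SERPINH1, the collagen chaperone, was the most abundant of all serpins with a row under normoxia and fell from 137 to 119 FPKM. SERPINA1, which encodes alpha-1 antitrypsin, was at 84.6 FPKM under normoxia and 95.8 FPKM under hypoxia, with a log2 fold change of 0.13 (SE 0.06, adjusted p = 0.0354), a call lost when any library other than normoxia replicate 3 was left out. SERPING1, under the filter, had no reads under normoxia and 7, 14 and 15 under hypoxia.

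SERPINB2 and SERPINB7 belong to the upper layers of squamous epithelium, so the genes of suprabasal differentiation were read beside them. Of the 23 listed, 15 were tested, of which 8 fell, 4 rose and 3 did not pass the test in edgeR, with a median log2 fold change of -0.57. Over all genes tested 38.5% fell and 39.2% rose. Those that fell included SPRR1B, SPRR2A and SPRR2D, small proline-rich proteins of the cornified envelope, and the stress keratins KRT6A and KRT6B, while SPRR1A and SPRR3 were under the filter. SPRR2D was at 12.1, 10.9 and 4.88 FPKM under normoxia and 0.485, 0.0812 and 0.227 FPKM under hypoxia (log2 fold change -5.22, SE 0.44). SPRR2A fell by 5.12 (SE 0.52), KRT6A by 4.12 (SE 0.25), SPRR1B by 3.59 (SE 0.53) and KRT6B by 2.65 (SE 0.13) on the log2 scale. The SPRR2 genes are near-identical copies, as are KRT6A and KRT6B, so how reads were split among them is uncertain. SPRR2D, SPRR2A and SPRR1B had 10 or fewer reads in each hypoxia library and passed the filter on low counts through normoxia, where they were high, so their place among the 8 that fell carries no weight.

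Of the 4 that rose, CNFN, a cornified envelope protein, rose by 1.76 (SE 0.32), KRT16, a partner of KRT6A, by 1.69 (SE 0.36) and CSTA, a cysteine protease inhibitor, by 0.62 (SE 0.16) on the log2 scale. KRT13, a keratin of the suprabasal oral mucosa, had 9, 5 and 3 reads under normoxia and 37, 45 and 44 under hypoxia (log2 fold change 2.81, SE 0.43) and passed the filter through the hypoxia libraries alone. KRT13 and KRT16 were at or under 1.23 FPKM in every library. IVL, which encodes involucrin, had a log2 fold change of -0.84 (SE 0.45, adjusted p = 0.0991), which was -1.12 and passed the test without normoxia replicate 2, and TGM1, the keratinocyte transglutaminase, of -0.48 (SE 0.33, adjusted p = 0.188). S100A8 fell by 0.56 (SE 0.22, adjusted p = 0.031) but the call was lost without normoxia replicate 3 (log2 fold change -0.27), hypoxia replicate 1 (-0.56) or hypoxia replicate 3 (-0.45). S100A9, its partner in calprotectin, had a log2 fold change of 0.10 (SE 0.13, adjusted p = 0.492), which was 0.34 and passed the test without normoxia replicate 3.

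**Figure D5:**
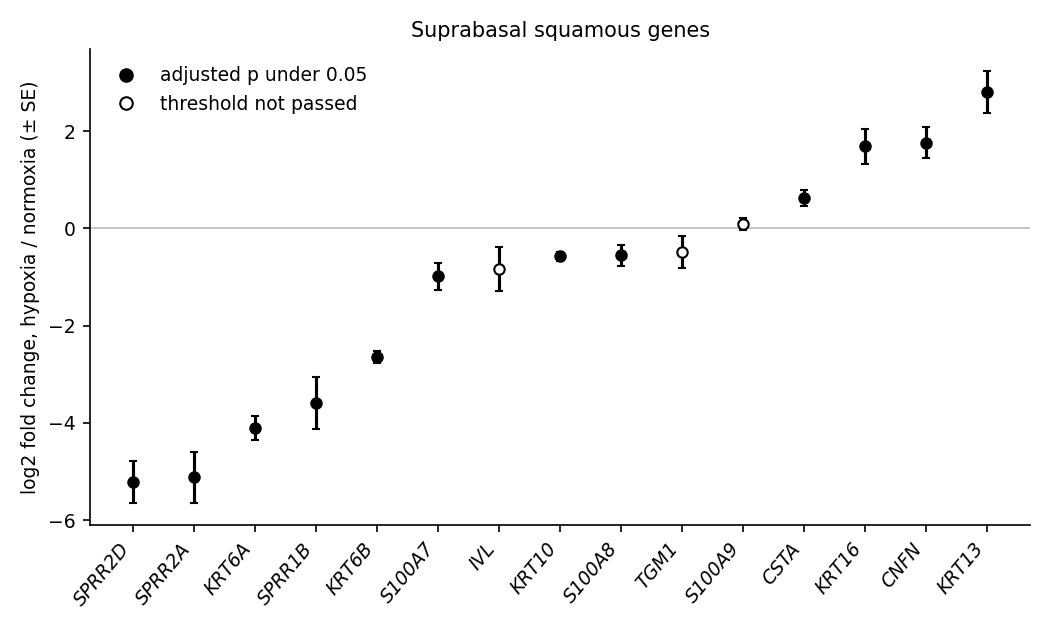
Log2 fold change of hypoxia over normoxia (y axis, with SE as bars) for the 15 suprabasal squamous genes tested, ordered by value, with filled points for an adjusted p under 0.05 (edgeR) and open points for the rest. The values run from -5.22 for SPRR2D to 2.81 for KRT13, with 8 filled points below 0 and 4 above.

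The genes whose pattern over the 6 libraries lay nearest to SERPINB2 were SPRR2D, SPRR2E, SPRR2A, KRT6A and AJAP1, at Euclidean distances of 2.96, 3.30, 3.37, 3.71 and 3.77 between centred log2 CPM. They were selected for this likeness over the same 6 libraries, which describes them and supports nothing further. SPRR2E was at 3.83, 2.93 and 1.13 FPKM under normoxia and at 1 read in all hypoxia libraries together. AJAP1, the farthest of the 5, had a log2 fold change of -4.15 (SE 0.23). For SERPINB1, the serpin with the largest increase, the nearest genes were PCMTD2, NISCH, YJU2B and PGLS, at distances of 0.060 to 0.067. These 4, selected for likeness in the same way, had log2 fold changes of 0.76 to 0.81. Of all genes tested, 24.1% had a higher log2 fold change than SERPINB1.

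Of the 18 listed transcription factors known to act on serpin or squamous genes, 17 were tested, of which 8 rose, 7 fell and 2 did not pass the test in edgeR, near the 39.2% and 38.5% of all genes that rose and fell, with a median log2 fold change of 0.12. The AP-1 genes split within the family, with FOS rising by 3.55 (SE 0.21), FOSL2 by 2.32 (SE 0.09), JUN by 1.90 (SE 0.09) and JUNB by 1.57 (SE 0.07) on the log2 scale. FOSL1, the most abundant of the 5 AP-1 genes under normoxia, fell from 366 to 116 FPKM (log2 fold change -1.70, SE 0.08). ETS2 rose from 6.10 to 49.3 FPKM (log2 fold change 2.97, SE 0.07) and ETS1 fell by 0.50 (SE 0.06). HIF1A, the oxygen-regulated subunit controlled mainly at the protein level, fell in RNA from 75.1 to 16.2 FPKM (log2 fold change -2.26, SE 0.08), and EPAS1, which encodes HIF-2 alpha, rose by 1.40 (SE 0.07). NFKB1, KLF4 and STAT3 fell by 0.86, 0.39 and 0.14 and OVOL1 rose by 0.67 on the log2 scale. TP63, the master regulator of squamous epithelium, had a log2 fold change of 0.12 (SE 0.12, adjusted p = 0.358), which was 0.35 and passed the test without normoxia replicate 3 (adjusted p = 7.55e-06 in edgeR's test). RELA had a log2 fold change of 0.08 (adjusted p = 0.171).

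All 15 listed genes of the hypoxia response rose in edgeR's test, where 39.2% of all genes tested rose. Their median log2 fold change was 2.71, beside 0.02 over all genes tested. The list was chosen with earlier results of these data known, so this describes the exposure and is not a test of it. The largest were EGLN3 at 6.69 (SE 0.20), NDRG1 at 5.40 (SE 0.30), ANGPTL4 at 3.89 (SE 0.10) and ANKRD37 at 3.79 (SE 0.22). Normoxia replicate 3 was the highest normoxia library for these 15 genes except ADM and ANGPTL4. Under normoxia NDRG1 was at 32.8, 27.2 and 81.1 FPKM, CA9 at 20.8, 17.0 and 43.2 FPKM and EGLN3 at 2.16, 1.33 and 3.91 FPKM. Why replicate 3 was higher was not tested, and all 15 still rose without it.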

How the data were processed

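The authors deposited 1 table of raw counts, the whole reads per gene, and the same genes as FPKM, which for every serpin with a row followed from the counts, a gene length and the library total. The aligner, counter, annotation and use of strand are not given in the sources used here. The submitters' processing notes name the mouse builds GRCm38 and mm10, but 94.5% of rows pair an Entrez number and symbol as human RefSeq GRCh38.p14 does, so genes were read as human and no deposited coordinates were used. Apart from the Entrez numbers, annotation columns of the deposited tables were not used.

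The test on the counts was edgeR's quasi-likelihood F test (edgeR 4.0.16, R 4.3.3, filterByExpr, TMM normalization, glmQLFit, glmQLFTest, condition as the only term) with Benjamini-Hochberg adjustment at 0.05 over 14255 genes. The standard error is the log2 fold change divided by the square root of F. On simulated hypoxia and normoxia counts edgeR found 181 of 193 genes changed by 1.5 on the log2 scale, with 6.22% of its calls false. No pair of libraries of 1 condition was within sampling noise, so each counted as 1 replicate. Exonic overlap and shared windows were read from GENCODE v29, start regions from RefSeq, and log2 CPM for distances used a prior count of 2. Intervals and limits of 3 reads cover counting error only.

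The serpins and all gene lists were chosen with earlier results of these data known. Named genes were every serpin of the list, members of the lists that passed the filter, and the 5 nearest genes to the serpins with the largest decrease and increase. A few genes that this rule names are not reported here, though counts and medians over the lists include them. Alternatives were DESeq2 size factors, the DESeq2 1.42.0 Wald test, no filter, at least 10 counts in every library, a replicate block, each library left out, limma 3.58.1 on log2(FPKM + 1) and log2(FPKM + 0.1), an added log2 threshold of 1, TPM, and summed SERPINB3 and SERPINB4.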

Additional observations from a re-analysis of the deposited data

How the results depend on the processing

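As a description of genes picked on this contrast, the 6 lower and 2 higher serpins kept their direction and call in every count fit that tested them, SERPINB3 and SERPINB4 not being tested with at least 10 counts in every library (4 lower), with log2 fold changes of -7.40 to -6.97 for SERPINB2, -2.23 to -2.09 for SERPINB8 and 0.73 to 0.87 for SERPINB1. On the log2(FPKM + 1) scale the value for SERPINB2 was -4.96, since the pseudocount understates changes of low genes. The replicate numbers did not pair the samples (correlations of -0.069 to 0.018 between same-numbered libraries), and with a replicate block 10875 genes were called against 11090, the serpin counts stayed at 6 and 2, and SERPINA1 and CTSV lost their calls. With an added log2 threshold of 1, the counts were 0 higher clade B serpins, 0 lower serpins of other clades, 1 lower and 1 higher target protease, 1 lower and 1 higher plasminogen gene, 5 lower suprabasal genes, 2 lower regulators and 1 lower cluster neighbour. Requiring 10 counts in every library left 4 lower suprabasal genes, since SPRR1B, SPRR2A and SPRR2D were no longer tested and S100A8 lost its call (-0.48), and turned VPS4B to 0.026. S100A9 ranged from -0.031 to 0.34 with each library left out, and was -0.030 without normoxia replicate 1 and -0.031 without normoxia replicate 2. As TPM the summed clade B level was 369.8 under normoxia and 221.2 under hypoxia, with a hypoxia to normoxia ratio of 0.598 against 0.592 in FPKM. SERPINB3, SERPINB4 and SERPINB13 are limited by depth, at 37 or fewer reads in any library.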
